A study of Homo sapiens with 24 samples.

Results

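H3K27ac was compared between ventricular-like cardiomyocytes in which ZNF436 was knocked down and control cells, in 3 libraries of each. These 6 libraries were taken from the 24 of the study by their titles, which name the mark, the group and the replicate number; the other 18 hold H3K4me3, H3K4me1 and H3K9me3, with 6 libraries a mark. Cells of both groups were made from H9, an established human embryonic stem cell line, and taken at day 15 of differentiation. In CUT&Tag, the assay used, an antibody guides a transposase that cuts and tags the DNA around the marked nucleosomes. How ZNF436 was knocked down, what the control cells received and whether replicates came from separate differentiations are not given in the sources used here. The spread that enters each p-value is thus that of the libraries at hand and may be technical.

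H3K27ac is acetylation of lysine 27 on histone H3. Acetyltransferases such as CBP place it, histone deacetylases remove it, and it lies at active promoters and active enhancers, where it separates enhancers in use from those that carry H3K4me1 alone. ZNF436 belongs to the KRAB zinc finger proteins, a family known for binding DNA and recruiting TRIM28, which brings in the machinery that deposits the silencing mark H3K9me3.

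Counts were given over 153244 regions of the hg19 build with a median width of 708 bp, the same list in every library. The H3K27ac totals were 3319671, 2955710 and 3681687 counts in knockdown libraries 1, 2 and 3, and 3188173, 3043827 and 3074226 in control libraries 1, 2 and 3. Between 21.6% and 27.9% of the regions held no count in a library. Control 3 lay on the knockdown side of the first principal component, unlike controls 1 and 2, so its place is given beside the results and counts of region and 50 kb bin calls are given with and without it. All positions are hg19. Gene names are not given, because no annotation of that build was used here, and neither the targeted gene nor the cardiomyocyte label could be checked against its own regions.

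H3K27ac rose at 5 regions and fell at 2 in knockdown cells, out of 61484 tested (edgeR's quasi-likelihood test, adjusted p under 0.05). The called share was 0.0114% of the tested regions, 0.00813% higher and 0.00325% lower. Promoter-like regions made up 4 of the 7, beside 22895 of the 61484 tested regions. Promoter-like means among the 20% of all regions with the most H3K4me3 per kb over that mark's 6 libraries. The class is set by rank and has no minimum level, so it can hold regions with little H3K4me3. The others were 1 H3K4me1-marked region, set in the same way among the regions that were not promoter-like, and 2 regions high in none of the other 3 marks. At the same threshold without adjustment, 6919 regions passed. With library totals in place of TMM factors the calls were 2 higher and 2 lower, and with loess offsets on abundance 6 and 6, so the excess of gains depended on the scaling. DESeq2 called 462 higher and 207 lower, and without a filter on low counts edgeR called 447 and 152. Calls also hung on single libraries: edgeR made 0 without control 1 or without any knockdown library (5393 to 6756 regions at an unadjusted p under 0.05), 92 without control 2 and 1412 without control 3.

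**Figure D1:**
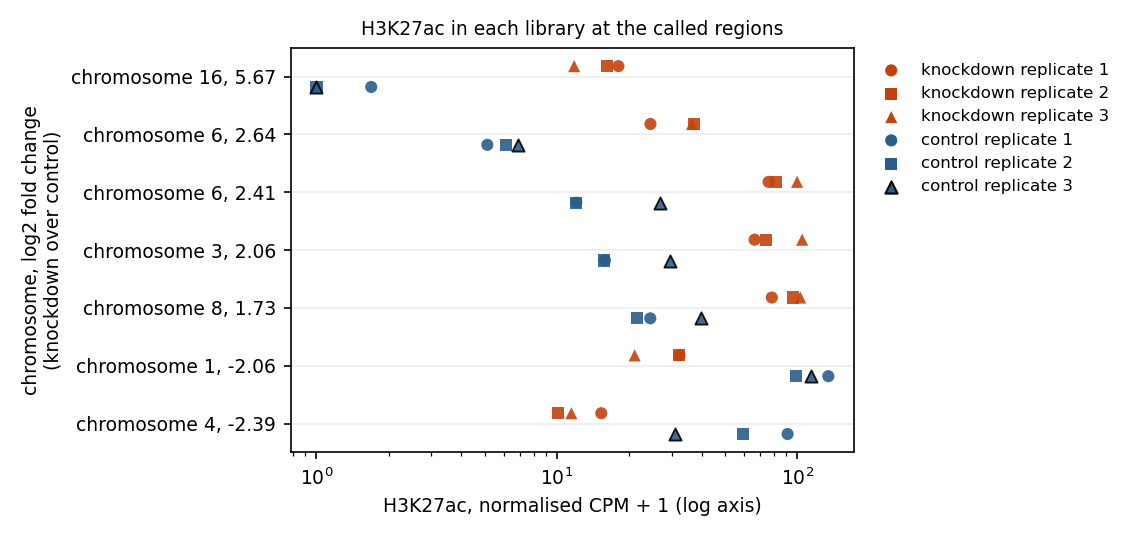
H3K27ac at the 7 called regions, with 1 row a region (chromosome and log2 fold change, knockdown over control) and 1 point a library, as normalised CPM + 1 on a log axis. Knockdown and control points do not overlap in any row, and control replicate 3 (outlined) is the control nearest the knockdown points at the rows of chromosomes 3, 4, 6 and 8, among them the row at -2.39.

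Among promoter-like regions, the smallest p for a gain was at chr6:127437365-127444343. It held 74.8, 80.7 and 98.6 normalised CPM (a library's counts relative to its TMM-scaled sum over tested regions) in knockdown libraries 1, 2 and 3, against 11.03, 11.01 and 25.7 in control libraries 1, 2 and 3. Control 3 was more than double the other controls here and still far below every knockdown library. The log2 fold change was 2.41 (SE 0.33, adjusted p = 0.00957, edgeR). H3K4me3, the promoter mark, was 183, 170 and 202 CPM in knockdown and 74.3, 81.4 and 81.3 CPM in control libraries of its own (log2 fold change 1.23, adjusted p = 4.67e-08, edgeR), and there the third control did not stand apart. H3K4me1 was 34.9 ± 1.03 CPM in knockdown and 31.3 ± 2.4 CPM in control libraries (SD, n = 3) and did not pass (adjusted p = 0.832, edgeR).

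The second promoter-like gain lay at chr3:75550641-75556745. Knockdown libraries held 65.3, 72.7 and 104 CPM of H3K27ac, against 14.8, 14.7 and 28.6 CPM in control libraries, with control 3 again the highest control (log2 fold change 2.06, SE 0.31, adjusted p = 0.0354, edgeR). Neither H3K4me3 (log2 fold change 0.60, adjusted p = 0.344) nor H3K4me1 (0.23, adjusted p = 0.655) passed in that region (edgeR). H3K4me3 was low there, at 11.2 CPM in knockdown and 7.39 CPM in control libraries, and H3K4me1 was 80.1 and 68.3 CPM. The promoter-like label thus rests on rank alone and does not show that the region is a promoter.

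Both regions that lost H3K27ac were promoter-like. At chr1:23686304-23698054 the knockdown libraries held 31.3, 31.1 and 20.03 CPM and the control libraries 133, 97.6 and 113 CPM, so that control 3 sat between the other controls. The log2 fold change was -2.06 (SE 0.26, adjusted p = 0.00631, edgeR), with the smallest p of any H3K27ac region. H3K4me3 was 10.4 ± 1.03 CPM in knockdown and 162 ± 9.74 CPM in control libraries (SD, n = 3) and fell by 3.96 on the log2 scale (adjusted p = 1.41e-14, edgeR). Whether this region belongs to the targeted gene was not checked. At chr4:151499859-151506019 the knockdown libraries held 14.3, 9.09 and 10.5 CPM, against 90.0, 58.4 and 30.1 CPM in control libraries 1, 2 and 3. The controls spread widely there, and control 3 was the closest to the knockdown libraries. The log2 fold change was -2.39 (SE 0.38, adjusted p = 0.0367, edgeR). The promoter mark fell as well, by 0.98 on the log2 scale (adjusted p = 0.0142, edgeR), while H3K4me1 was 55.9 ± 1.55 CPM in knockdown and 47.4 ± 5.99 CPM in control libraries (SD, n = 3; adjusted p = 0.682, edgeR).

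A gain outside promoter-like chromatin was called at the H3K4me1-marked region chr8:118181606-118186908. It held 77.2, 94.7 and 102 CPM in knockdown libraries against 23.4, 20.6 and 38.5 CPM in control libraries (log2 fold change 1.73, SE 0.28, adjusted p = 0.0367, edgeR). The enhancer mark itself was 69.1 ± 6.03 CPM in knockdown and 63.8 ± 14.1 CPM in control libraries (SD, n = 3; log2 fold change 0.12, adjusted p = 0.861, edgeR). The remaining gains were regions without a high level of any other mark. At chr6:126351042-126352611 the values were 23.5, 36.0 and 35.4 CPM in knockdown libraries and 4.14, 5.14 and 5.87 CPM in control libraries, a log2 fold change of 2.64 (SE 0.43, adjusted p = 0.0367, edgeR). At chr16:50180312-50180939, a region of 628 bp, they were 17.0, 15.2 and 10.8 CPM in knockdown libraries, against 0.689, 0 and 0 CPM in control libraries (adjusted p = 0.0367, edgeR). The sums there were 125 and 2 counts, a ratio of 59.1 with an exact 95% interval of 16.0 to 494 that covers counting error only. All 3 controls lay close together at both regions, and control 3 was no nearer the knockdown libraries at the chromosome 16 region.

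Of the 7 regions 5 could be tested in H3K4me3, and 3 of these were called there, 1 higher and 2 lower, against 0.56% of all regions tested in that mark. No H3K4me1 change passed at any of the 7, and 0 passed among all 85815 regions tested for that mark, while 2 of the 7 had an unadjusted p under 0.05 in edgeR. Over all regions 4.91% had such a p with higher and 5.58% with lower H3K4me1. The 2 were the chromosome 1 region (log2 fold change -1.40, adjusted p = 0.105) and the chromosome 16 region (1.81, adjusted p = 0.367), each with the sign of its H3K27ac change. H3K9me3 had enough counts for a test at 2 of the 7. Its values at the chromosome 1 region were 249 ± 17.99 CPM in knockdown and 151 ± 19.1 CPM in control libraries (SD, n = 3; log2 fold change 0.73, adjusted p = 0.0648, edgeR).

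Just outside the threshold, the naming rule took 10 regions with higher and 10 with lower H3K27ac, the smallest p among regions that were not called, with groups that did not overlap and a mean of at least 10 CPM. Their adjusted p lay between 0.0529 and 0.0714 (edgeR), so none passed. Groups did not overlap, with knockdown higher, at 9.14% of all tested regions and, with knockdown lower, at 8.37%. Log2 fold changes were 1.21 to 3.23 in the first set and -2.75 to -1.28 in the second. The lower set held 7 promoter-like, 2 H3K4me1-marked and 1 other region, and the higher set 3, 3 and 4. Of all 61484 tested regions, these classes held 22895, 17585 and 19222. H3K4me3 varied widely among the promoter-like members. In the lower set its mean ran from 0.605 to 57.8 CPM in knockdown and from 2.49 to 77.2 CPM in control libraries. In the higher set it ran from 1.35 to 226 CPM in knockdown and from 1.49 to 128 CPM in control libraries. The label is a rank and does not make each of them a promoter. Control 3 was the control nearest the knockdown libraries at 8 of the 10 higher and 6 of the 10 lower regions. The same share over all tested regions is not given here. For the 50 kb bins described below, it was the highest control in 46% of all tested bins above 0. It was the lowest control in 43% of those below 0.

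The largest of these by level was the promoter-like region chr17:59470752-59480012, with 135, 149 and 170 CPM in knockdown and 57.2, 56.5 and 77.1 CPM in control libraries (log2 fold change 1.25, adjusted p = 0.0529, edgeR). At chr19:53242847-53247655 the knockdown libraries held 122, 134 and 135 CPM of H3K27ac and the control libraries 61.0, 48.1 and 59.8 CPM (log2 fold change 1.21, adjusted p = 0.0574, edgeR). Of the 20 regions, 12 could be tested in H3K4me3 and 2 were called there, against 0.56% of all regions tested in that mark. The call with higher values was the chromosome 19 region, at 6.20 ± 1.57 CPM in knockdown and 1.92 ± 0.242 CPM in control libraries (SD, n = 3; log2 fold change 1.69, adjusted p = 0.0332, edgeR). The call with lower values was chr10:105435532-105438712, at 1.27 ± 0.182 CPM of H3K4me3 in knockdown and 7.91 ± 2.44 CPM in control libraries (SD, n = 3; log2 fold change -2.63, adjusted p = 0.00162, edgeR). H3K27ac at that region was 18.7, 19.7 and 16.6 CPM in knockdown and 60.3, 55.1 and 39.6 CPM in control libraries, which do not overlap (log2 fold change -1.49, adjusted p = 0.0714, edgeR). The chromosome 17 region did not pass in H3K4me3 (0.83, adjusted p = 0.178, edgeR). Among the lower values, chr6:160815338-160816443 had the largest fold, with 3.40, 3.79 and 3.08 CPM in knockdown and 26.5, 18.4 and 24.96 CPM in control libraries (log2 fold change -2.75, adjusted p = 0.0529, edgeR). These 4 were picked from the 20 after their values were seen.

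Counts of neighbouring regions were then summed in 50 kb bins, which gathers several weak regions of one stretch into a single value. Of 44729 bins with a region, 28454 could be tested, and 28 were higher and 3 lower in knockdown cells (0.0984% and 0.0105% of those tested; edgeR, adjusted p under 0.05). Of the 31 called bins, 25 held no called region, and 6 held one. A single region made up the whole bin in 5 of the 31, against 11.3% of all tested bins, so there nothing was summed. In called bins with several regions the largest supplied 31.7% to 99.7% of the counts. Some of these, such as chr8:107800001-107850000 (99.7%) and chr5:16400001-16450000 (95.6%), were thus close to a single region too. Tested bins were also fewer than the 61484 tested regions, which changes the adjustment. The 28 higher bins lay on 13 chromosomes. Without adjustment 3955 bins passed, and the median log2 fold change over all tested bins was -0.04. Without control 1 or any knockdown library edgeR called 0 bins (2576 to 3344 at an unadjusted p under 0.05), without control 2 there were 174, and without control 3 there were 1756. DESeq2 called 373 higher and 234 lower bins, and a stricter filter on low counts left 5 higher and 1 lower, all 6 among the 31. Loess offsets gave 42 higher and 14 lower bins, a smaller share of gains than in the fit with TMM factors.

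**Figure D2:**
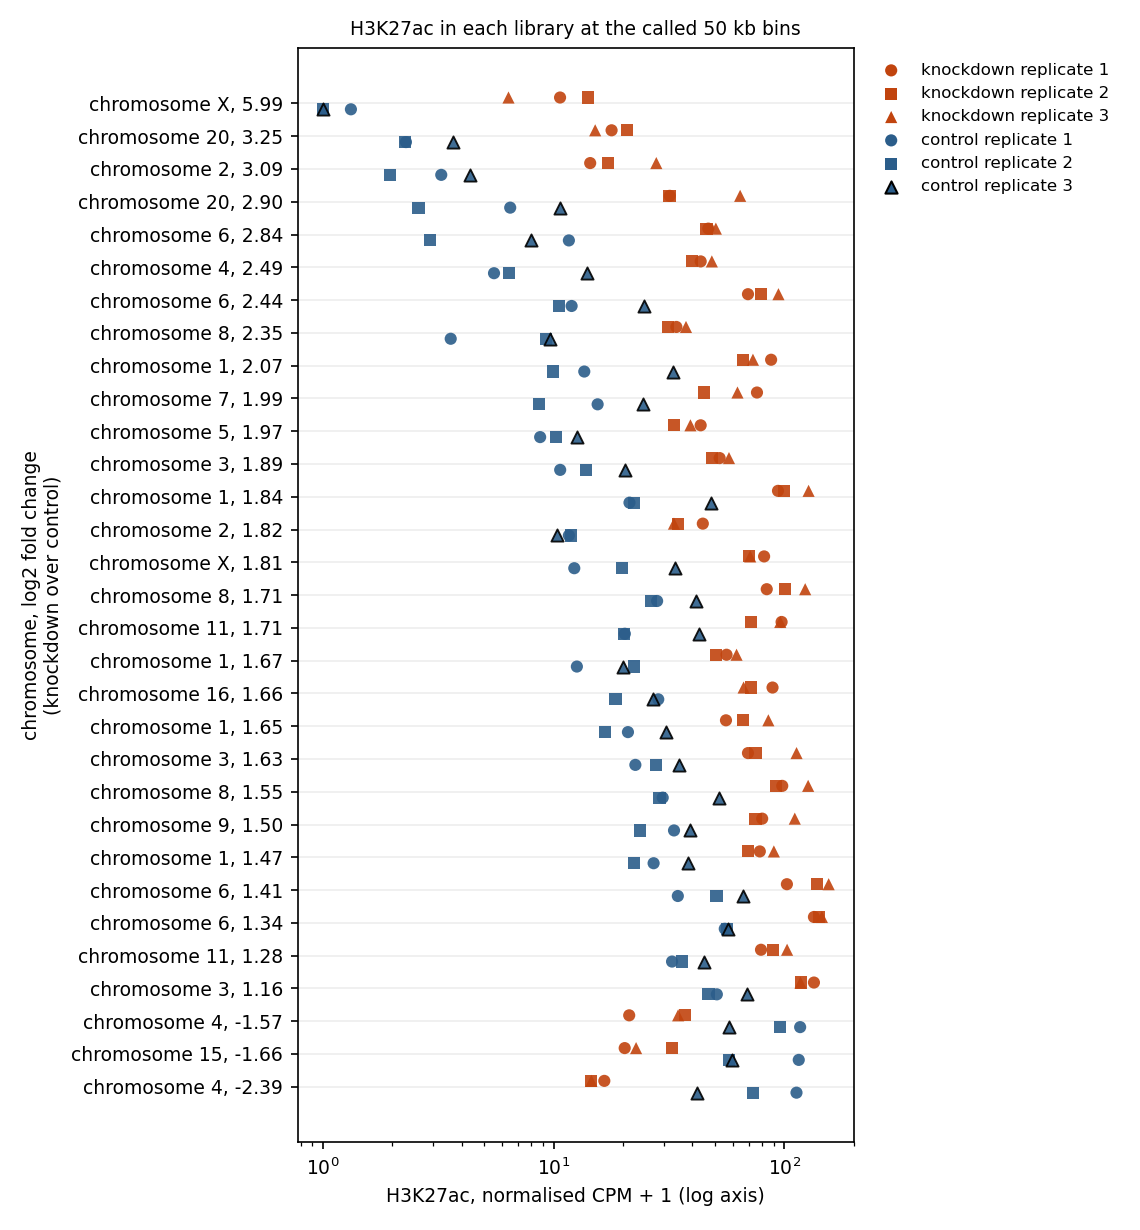
H3K27ac at the 31 called 50 kb bins, sorted by log2 fold change (knockdown over control), with 1 point a library as normalised CPM + 1 on a log axis. Knockdown and control points do not overlap in any row. Control replicate 3 (outlined) is the highest control in 23 of the 28 upper rows, against 46% of all tested bins above 0.

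Bins with more H3K27ac in knockdown cells had mean levels of 9.40 to 139.7 CPM (median 74.1) in knockdown and 0.108 to 55.1 CPM (median 19.4) in control libraries, and log2 fold changes of 1.16 to 5.99 (median 1.81). CPM of bins are scaled to the counts in tested bins and are therefore not on the scale of the region values. Of the 82 tested regions inside the 28 bins, 80 were above 0, against 47.2% of all 61484 tested regions. All 7 inside the 3 lower bins were below 0. The groups did not overlap at any of the 31 bins, against 10% of all tested bins with knockdown higher and 8.98% with knockdown lower. Since the bins were called on these counts, the shares describe them and test nothing.

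Few of the higher bins held a promoter-like region: 9 of the 28 did, against 51.4% of all tested bins. By region, 12.4% of the 129 regions in the higher bins were promoter-like, against 23.7% of the regions in all tested bins, and 62.8% were high in no other mark, against 43.6%. H3K4me1-marked regions took 18.6% and 18.5%, and H3K9me3-marked regions 6.20% and 14.3%. All 3 lower bins held a promoter-like region. These classes were set on the other marks, yet the call itself needs counts and a low control level, so the shares are given as a description.

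The smallest p of all bins was at chr6:127400001-127450000, where 1 promoter-like region, described above, supplied 97.0% of the counts (68.6, 78.6 and 93.4 CPM in knockdown and 10.97, 9.58 and 23.7 CPM in control libraries). About 1 Mb away, a pair of adjacent bins was called. In chr6:126350001-126400000 the knockdown libraries held 133, 141 and 145 CPM and the control libraries 54.2, 55.2 and 55.8 CPM (log2 fold change 1.34 with an SE of 0.20, adjusted p = 0.0177, edgeR). Its controls were the closest to each other, relative to their mean, of the 31 bins, and all 6 of its tested regions were above 0, with 34.8% of the counts in the largest. In the next bin, chr6:126400001-126450000, the values were 45.8, 45.0 and 49.5 CPM in knockdown and 10.7, 1.92 and 7.01 CPM in control libraries (log2 fold change 2.84, SE 0.44, adjusted p = 0.0201, edgeR), from 3 regions that all lay above 0 and none of which was called. Of the 13 regions in the pair of bins, 12 were high in no other mark and 1 was H3K9me3-marked.

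Several other gains were stretches of regions with no called member. The bin chr1:57550001-57600000 held 92.9, 99.01 and 126 CPM in knockdown and 20.3, 21.4 and 47.1 CPM in control libraries (log2 fold change 1.84, adjusted p = 0.0264, edgeR), and all 7 of its regions were tested and above 0. Its largest region, chr1:57568303-57570889, supplied 38.3% of the counts and narrowly missed a call of its own (log2 fold change 2.42, adjusted p = 0.0529, edgeR). In chr4:144900001-144950000 the values were 42.4, 38.8 and 47.5 CPM in knockdown and 4.52, 5.43 and 13.0 CPM in control libraries (2.49, adjusted p = 0.0264, edgeR). Control 3 was more than double the other controls in both. In chr3:131050001-131100000 they were 51.5, 47.4 and 56.6 CPM in knockdown and 9.68, 12.8 and 19.4 CPM in control libraries (1.89, adjusted p = 0.034, edgeR). The bin chr20:8500001-8550000 had the most uneven knockdown values of these, 30.9, 30.8 and 63.4 CPM, against 5.49, 1.60 and 9.69 CPM in control libraries (2.90, adjusted p = 0.034, edgeR).

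The other named gains held a called region. In chr8:118150001-118200000 the knockdown libraries had 83.0, 99.7 and 122 CPM and the control libraries 27.1, 25.5 and 40.4 CPM (log2 fold change 1.71, adjusted p = 0.0177, edgeR). In chr3:75550001-75600000 they had 68.6, 74.1 and 112 CPM, against 21.6, 26.8 and 34.1 CPM in control libraries (1.63, adjusted p = 0.034, edgeR). Called regions supplied 81.5% and 81.3% of the counts in these bins. In chr16:50150001-50200000 the values were 88.0, 71.0 and 65.6 CPM in knockdown and 27.4, 17.6 and 26.1 CPM in control libraries (1.66, adjusted p = 0.0264, edgeR). Most of its counts, 76.6%, lay outside the called region of 628 bp, in a promoter-like neighbour at chr16:50185994-50189999. That neighbour held 78.6, 56.8 and 53.6 CPM in knockdown and 23.1, 17.6 and 17.6 CPM in control libraries (adjusted p = 0.0529, edgeR) and did not pass.

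Of the bins beyond the first 10 gains, 1 is given after its values were seen, because its control libraries were nearly empty. In chrX:43000001-43050000 a single region held 88 counts over the knockdown libraries and 1 count over the control libraries, with 9.67, 13.2 and 5.38 CPM in knockdown and 0.323, 0 and 0 CPM in control libraries. The ratio was 84.3, with an exact 95% interval of 14.7 to 3370 for counting error only (adjusted p = 0.0398, edgeR).

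Losses in bins were fewer and rested on promoter-like regions. In chr4:151500001-151550000 the knockdown libraries held 15.6, 13.5 and 13.6 CPM and the control libraries 112, 72.2 and 40.8 CPM (log2 fold change -2.39 with an SE of 0.34, adjusted p = 0.0157, edgeR). The 4 regions of this bin were all promoter-like. In chr15:53050001-53100000 the values were 19.3, 31.5 and 21.8 CPM in knockdown and 115, 56.5 and 58.1 CPM in control libraries (-1.66, SE 0.31, adjusted p = 0.0435, edgeR). In chr4:69750001-69800000 a single promoter-like region held 20.3, 36.0 and 33.7 CPM in knockdown and 116, 94.5 and 56.8 CPM in control libraries (-1.57, SE 0.30, adjusted p = 0.0432, edgeR). Control 3 was the lowest control in the bins of chromosome 4 and not in that of chromosome 15. Over all tested bins below 0 it was the lowest in 43%.

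A further 2 bins are named with lower values that did not pass. In chr1:200850001-200900000 the knockdown libraries held 80.2, 80.3 and 78.1 CPM and the control libraries 202, 148 and 138 CPM (log2 fold change -1.03, adjusted p = 0.0541, edgeR). In chr9:20100001-20150000 there were 2 counts over the knockdown and 90 over the control libraries (ratio 0.0213, exact 95% interval 0.00254 to 0.0792 for counting error only; adjusted p = 0.0541, edgeR). The chromosome 1 region with the smallest p was the only called region outside a called bin. Its bin, chr1:23650001-23700000, held 101, 95.9 and 85.5 CPM in knockdown and 205, 162 and 172 CPM in control libraries (log2 fold change -0.93, adjusted p = 0.0586, edgeR).

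Other window sizes kept part of this picture. With 10 kb windows 29 were higher and 6 lower (0.0715% of 48956 tested), and 21 of these 35 overlapped a called 50 kb bin. With 200 kb windows 21 were higher and 6 lower (0.219% of 12301), and 14 of the 27 overlapped one. Bins of 50 kb that began 25 kb further along gave 61 higher and 13 lower (0.26% of 28463), and overlapped 27 of the 31 bins. The placement of the bin edges alone thus more than doubled the number of calls.

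At 1 Mb, 9 of 2891 windows (0.311%) were called, 4 higher and 5 lower, and 2 of them overlapped a called 50 kb bin. The smallest p was a gain at chr11:26000001-27000000, with 176, 157 and 194 CPM in knockdown and 53.6, 70.3 and 72.7 CPM in control libraries (log2 fold change 1.42, SE 0.19, adjusted p = 0.0207, edgeR). There 10 of 11 tested regions were above 0. The smallest p of a loss was at chr2:60000001-61000000, with 172, 162 and 176 CPM in knockdown and 316, 339 and 281 CPM in control libraries (-0.88, SE 0.13, adjusted p = 0.0264, edgeR), where 22 of 25 tested regions were below 0 and none was called. At chr5:113000001-114000000 the values were 401, 410 and 447 CPM in knockdown and 185, 204 and 275 CPM in control libraries (0.92, SE 0.15, adjusted p = 0.0347, edgeR), with 19 of 21 tested regions above 0. Over all tested regions 47.2% were above 0. Since the windows were called on the counts of these regions, the shares by sign describe them and test nothing. These 3 windows were chosen after their values were seen. Neither the chromosome 2 nor the chromosome 5 window overlapped a called 50 kb bin.

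The other marks, measured in libraries of their own, were read at the same 28 higher bins. Of 15 bins that could be tested in H3K4me3, 13 were above 0, against 49.1% of all bins tested in that mark, and 2 were called higher, against 0.497% (edgeR, adjusted p under 0.05). These were the chromosome 6 bin with the smallest p (187 ± 15.8 CPM in knockdown and 78.7 ± 3.45 CPM in control libraries; SD, n = 3) and, named after its values were seen, chr8:12350001-12400000 (11.9 ± 1.25 CPM in knockdown and 3.68 ± 1.94 CPM in control libraries). In H3K4me1 all 28 could be tested and 27 were above 0, against 48.5% of all bins, with a median log2 fold change of 0.50, against -0.02 over all bins tested in that mark. None was called, as in H3K4me1 as a whole (0 of 31889), while 13 had an unadjusted p under 0.05 with higher values, against 5.92% of all bins. In H3K9me3, 11 of 14 were above 0, against 51.3% of all bins. None was called, against 0.0124% of all bins, and 3 had an unadjusted p under 0.05 with higher values, against 5.71% (edgeR).

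The H3K4me1 values of 2 bins serve as examples. In chr4:144900001-144950000 they were 54.8, 41.8 and 59.0 CPM in knockdown and 14.8, 16.8 and 26.8 CPM in control libraries (log2 fold change 1.42, adjusted p = 0.0868, edgeR). In chrX:122350001-122400000, named after its values were seen, they were 111, 101 and 127 CPM in knockdown and 43.7, 41.6 and 72.0 CPM in control libraries (1.12, adjusted p = 0.0868, edgeR). Neither passed, the groups did not overlap, and the third control of this mark was the highest in both. Over the 28 bins the third H3K4me1 control was the highest control in 21, against 51.0% of all bins above 0 in that mark. In H3K4me3 it was the highest in 5 of 15, against 42.8%. At the 3 lower bins H3K4me3 was below 0 in all 3 and called lower in 1, chr4:151500001-151550000, against 0.254% of all bins, while H3K4me1 was below 0 in 1.

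Changes in whole classes of chromatin were small. Over tested regions the median log2 fold change was -9.76e-05 for promoter-like (22895 regions), -0.09 for H3K4me1-marked (17585), 0.13 for H3K9me3-marked (1782) and -0.12 for other regions (19222), beside -0.05 over all. The H3K9me3-marked median was -0.12 without control 1. Promoter-like regions held 54.9% ± 0.886 of the counts in knockdown and 53.3% ± 3.00 in control libraries (SD, n = 3). The difference of 1.62 points was 0.118 without control 2 and 3.11 without control 1. H3K4me1-marked regions held 22.7% ± 0.150 in knockdown and 23.0% ± 0.546 in control libraries. H3K9me3-marked regions held 3.15% ± 0.371 in knockdown and 2.99% ± 0.812 in control libraries, and other regions 19.2% ± 0.419 in knockdown and 20.7% ± 1.85 in control libraries. The difference for other regions, -1.46 points, was -0.465 without control 2 and -2.29 without control 1. Without control 1 the H3K9me3-marked share was lower in knockdown, by a difference of -0.303 points. No difference in the 4 shares passed the test (exact permutation test, two-sided, adjusted p = 0.8, 0.8, 0.9 and 0.8 in the order of the classes above); the smallest unadjusted p that 3 against 3 allows is 0.1.

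The share of counts in the strongest regions did not pass the test, which cannot pass with 3 against 3. The 1% of regions with the highest mean over the 6 libraries held 18.8%, 18.6% and 19.0% of the counts in knockdown libraries 1, 2 and 3, against 16.9%, 14.9% and 18.4% in control libraries 1, 2 and 3. The groups did not overlap, control 3 was the control nearest the knockdown libraries, and the exact permutation test, two-sided, gave p = 0.1. For the top 0.1% the shares were 4.99%, 5.70% and 5.51% in knockdown libraries and 4.05%, 4.49% and 5.49% in control libraries (exact permutation test, two-sided, p = 0.2), and the groups overlapped, with control 3 above knockdown 1. By level, the median log2 fold change was 0.11 in the top 20% of tested regions by mean CPM, and between -0.17 and -0.05 in each of the 4 lower groups of 20%.

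On the main axis of variation control 3 did not sit with the other controls. A principal component analysis used the tested regions of highest mean (20% of them), and its first component took 50% of the variance. On it the knockdown libraries scored 30.2, 16.6 and 28.2, and controls 1, 2 and 3 scored -27.9, -59.3 and 12.2. On a scale that runs from 0 at the mean of controls 1 and 2 to 1 at the mean of the knockdown libraries, control 3 lay at 0.813. On the second component it lay with control 1, at -23.8 and -30.2, away from the knockdown libraries at 7.30 to 13.9. The component on 50 kb bins took 34.2% of the variance and gave the same order on the first axis.

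**Figure D3:**
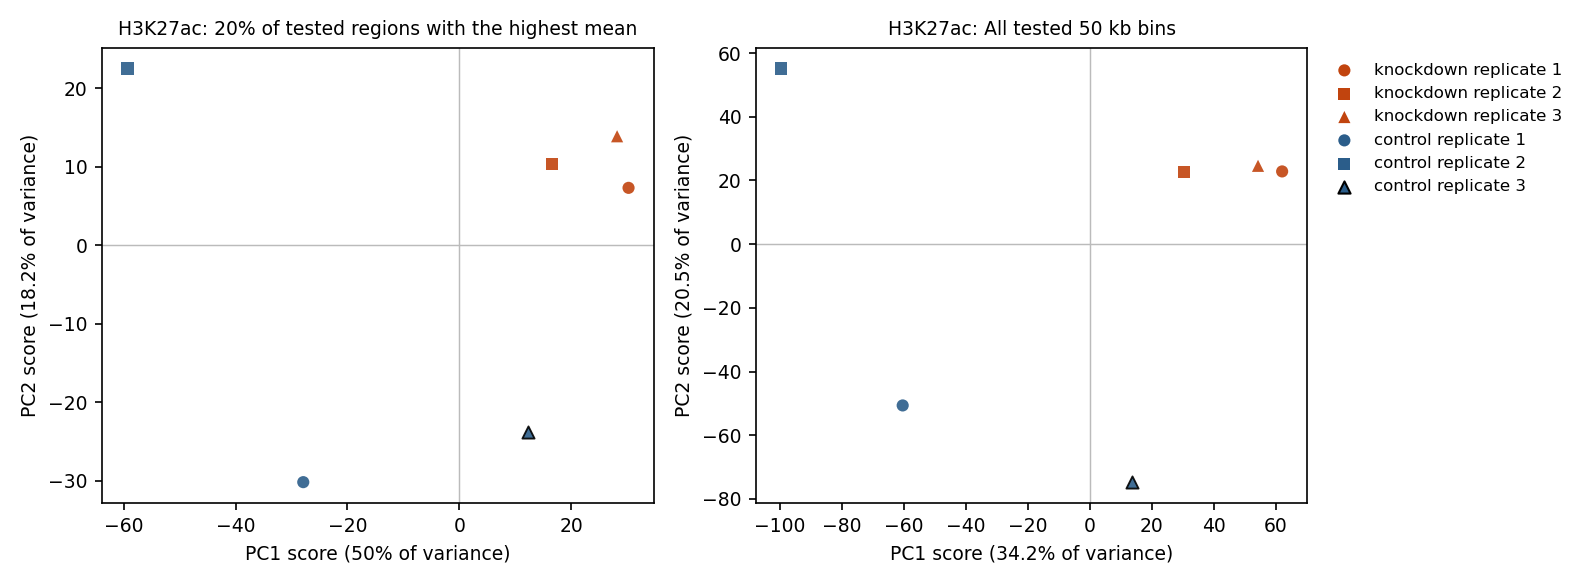
Scores of the 6 H3K27ac libraries on the first and second principal components of log2 CPM, over the 20% of tested regions of highest mean (left) and over all tested 50 kb bins (right). Control replicate 3 (outlined) lies on the knockdown side of 0 on the first component and beside or below control replicate 1 on the second.

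Pair by pair, control 3 was about as close to control 1 as to the knockdown libraries. Spearman's rho of log2 CPM over tested regions was 0.711, 0.712 and 0.709 between control 3 and knockdown libraries 1, 2 and 3, against 0.713 with control 1 and 0.611 with control 2. The average of 0.662 with the other controls was thus low through control 2, while controls 1 and 2 were at 0.709 with each other. The other 5 libraries each correlated better with their own group than with the other, for example knockdown 1 at 0.758 and 0.655 and control 2 at 0.660 and 0.607, own group first. On bins control 3 was at 0.888 to 0.892 with the knockdown libraries, against 0.885 with control 1 and 0.827 with control 2. These correlations are across regions or bins of the same libraries and are a description. Over regions control 2 was at 0.595 to 0.628 with the knockdown libraries. The depth of control 3 (3074226) lay between those of the other controls. The region with the most reads held 0.656% of its counts, beside 0.526% to 0.755% in knockdown libraries and 0.303% and 0.626% in controls 1 and 2. Its share of even counts among those above 0, 62.5%, was closer to the knockdown libraries (60.6% to 62.3%) than to controls 1 and 2 (58.3% and 58.9%). The part of these features in its position was not tested.

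Calls changed most with control 3. Leaving it out gave 1108 higher and 304 lower regions (1.96% of 72122 tested) and 1089 higher and 667 lower bins (5.77% of 30410 tested), and the 7 regions and 31 bins called with all libraries were among them. Leaving out control 2 gave 55 higher and 37 lower regions (0.131%) and 98 higher and 76 lower bins (0.579%), again with all the earlier calls. Leaving out control 1 or any knockdown library gave 0 calls at both levels (edgeR), and no other tool was run on these subsets. The counts of called regions and 50 kb bins thus depended on which libraries entered; other window sizes were not refitted without a library.

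**Figure D4:**
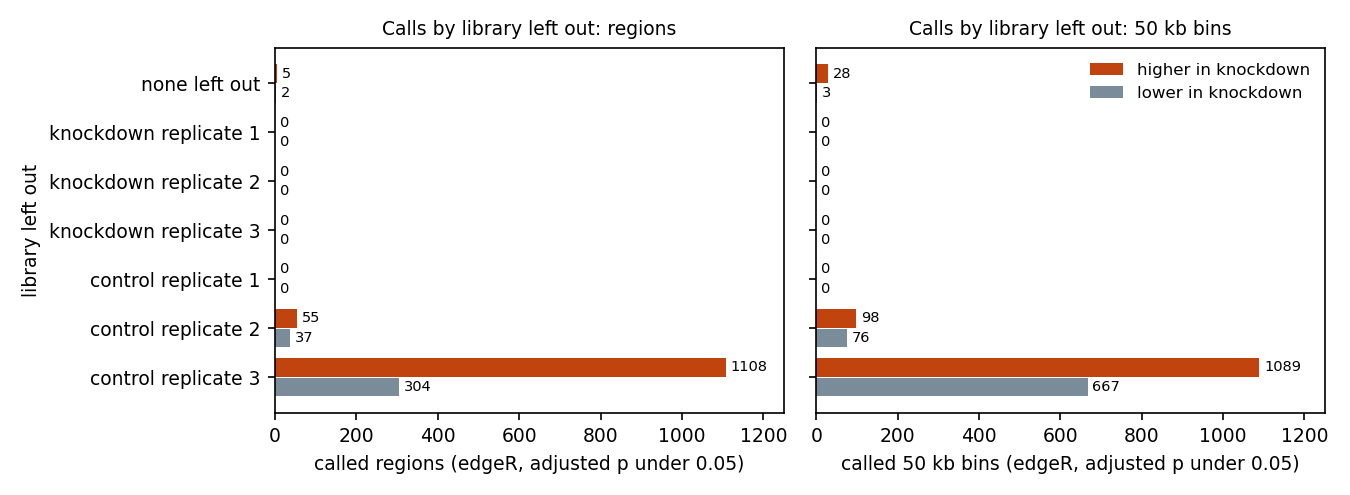
Number of called regions (left) and called 50 kb bins (right) with higher (upper bar) and lower (lower bar) H3K27ac in knockdown, by the library left out of the fit. The bars without control replicate 3 reach 1108 and 1089 higher, and those without control replicate 1 or any knockdown library are at 0.

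Features called without control 3 show where this library lies at sites it did not help to choose. On the same scale from 0 at the other controls to 1 at the knockdown mean, its median position was 0.694 over the 1412 regions and 0.698 over the 1756 bins, with quartiles of 0.469 and 0.891 for regions and 0.447 and 0.928 for bins. It was nearer the knockdown than the control mean at 71.8% of these regions and 70.4% of these bins. For control 2, treated alike, the median positions were 0.224 and 0.258 over the 92 regions and 174 bins called without it, and it was nearer the knockdown mean at 25% and 29.3%. Since these features were called for a wide gap between the other libraries, the positions of the 2 controls are a description. They were taken at different features and against different other controls, so they are not directly comparable. At the 28 bins called with all libraries control 3 had a median position of 0.335.

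The bins called without control 3 were also read in the other marks, whose libraries took no part in the call. Of 713 bins with higher H3K27ac that could be tested in H3K4me3, 86.8% were above 0, against 49.1% of all bins tested in that mark, and 17 (2.38%) were called higher, against 0.497%. Of 517 with lower H3K27ac, 81.2% were below 0, against 50.9%, and 9 (1.74%) were called lower, against 0.254%. In H3K4me1 the shares on the same side were 84.0% of 1083 higher and 93.1% of 666 lower bins, against 48.5% and 51.5% of all bins, with no bin called. In H3K9me3, 63.2% of 668 higher bins were above 0, against 51.3% of all bins, and 32.8% of 470 lower bins were below 0, against 48.7%. Whether libraries of different marks with the same number came from the same cells is unknown from the labels.

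**Figure D5:**
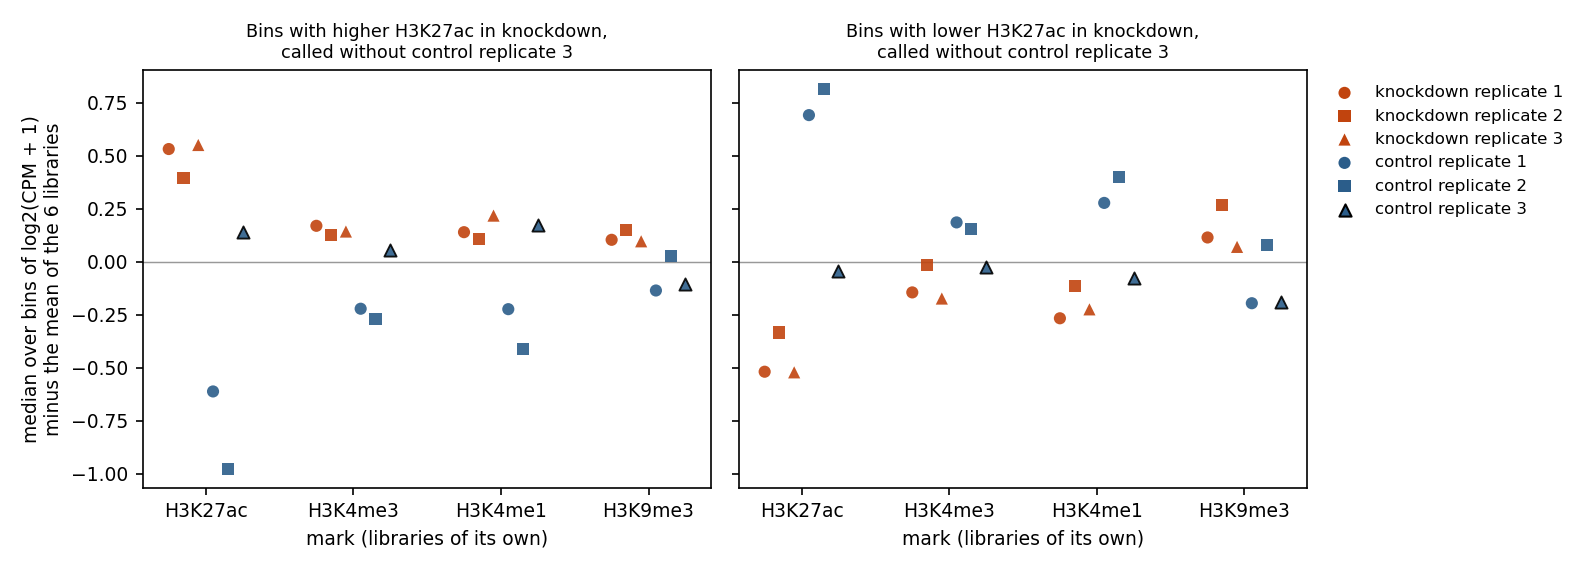
Median over the 50 kb bins called without control replicate 3, as log2(CPM + 1) minus the mean of the mark's 6 libraries, for bins with higher (left) and lower (right) H3K27ac in knockdown, with 1 point a library. The third control library (outlined) lies on the knockdown side of 0 in H3K27ac, in H3K4me3 and in H3K4me1, and at the higher bins of H3K9me3 it lies on the control side.

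Library by library, the third control took the knockdown side in H3K4me1 as well. At the higher bins its median was 0.18 on the log2 scale relative to the mean of that mark's libraries, beside 0.14, 0.11 and 0.22 in knockdown libraries 1, 2 and 3, and -0.22 and -0.41 in controls 1 and 2. In H3K4me3 it was 0.06, beside 0.17, 0.13 and 0.14 in knockdown libraries and -0.22 and -0.27 in controls 1 and 2. In H3K27ac itself it was 0.14, beside 0.53, 0.40 and 0.55 in knockdown libraries and -0.61 and -0.98 in controls 1 and 2. At the lower bins the third control was at -0.04 in H3K27ac, -0.02 in H3K4me3 and -0.08 in H3K4me1. Knockdown libraries 1, 2 and 3 were at -0.52, -0.33 and -0.52 in H3K27ac, and -0.14, -0.01 and -0.17 in H3K4me3. In H3K4me1 they were at -0.27, -0.11 and -0.22. The third control was thus below 0, but in H3K27ac and H3K4me1 nearer 0 than every knockdown library. Controls 1 and 2 were above 0 in all 3 marks.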

How the data were processed

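CUT&Tag counts of 6 H3K27ac libraries, 3 from ZNF436 knockdown and 3 from control cells, were analysed, with the 18 libraries of the other marks read over the same regions. The deposited files give whole-number read counts per region, not normalized. Tools named, without their roles, per the submitters' processing notes, are deepTools 3.5.4, bedtools 2.30.0 and Bowtie2 2.4.5, with the build hg19. How the regions were drawn up is unknown from these sources. Between 58.3% and 62.5% of counts above 0 were even in a library, so both mates of a pair may have been counted and intervals, which cover counting error only, may be too narrow. Total counts were 2955710 to 3681687. No pair of libraries within a group agreed within sampling noise (chi-square per degree of freedom 4.91 to 8.38).

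Counts were tested with edgeR 4.0.16 in R 4.3.3 (filterByExpr, TMM, robust quasi-likelihood test, group as the only term), each mark on its own. Calls need a Benjamini-Hochberg adjusted p under 0.05 over all tested features. SE is the log2 fold change, knockdown over control, divided by the square root of F. Bins sum regions by midpoint, from the chromosome start. Scripts were tested on simulated data. Alternatives were RLE factors, library totals, DESeq2 1.42.0, voom in limma 3.58.1, loess offsets (span 0.3), no filter or a stricter one (at least 30 reads), halved counts, a replicate block, each library left out, other windows and a top 10% for classes.

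Named regions are all called ones, then up to 10 higher and 10 lower with the smallest p, groups that did not overlap and at least 10 CPM, merged within 10 kb. Named bins are the first 10 called in each direction, filled to 5 with the smallest p where fewer passed. Members, lists and classes were chosen with earlier results of these data known. Tests of promoters, gene lists and cell type markers were not run, because the annotation at hand is of another build than the files; it was not used here.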

Additional observations from a re-analysis of the deposited data

How the results depend on the processing

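The counts of calls were the least stable results, and the cause was not tested beyond what each alternative changes by construction. For regions (5 higher and 2 lower), the calls were 2 higher with library totals, 6 lower with loess offsets, 462 and 207 with DESeq2, 162 and 23 with limma-voom, 447 and 152 without a filter, 28 and 13 with the strict filter and 92 and 26 with halved counts, higher first. For bins (28 and 3) they were 5 lower with library totals, 14 lower with loess offsets, 373 and 234 with DESeq2, 86 and 10 with limma-voom, 356 and 225 without a filter, 5 and 1 with the strict filter, 45 and 10 with halved counts, 6 lower in 10 kb and in 200 kb windows, 4 and 5 in 1000 kb windows and 61 and 13 in shifted bins. RLE factors and a minimum log2 fold change of 1 changed no call. DESeq2 left 23841 regions and 7723 bins without an adjusted p. Leaving out single libraries gave 0 to 1108 higher and 0 to 304 lower regions, and 0 to 1089 higher and 0 to 667 lower bins. Of the 7 called regions, 4 were called with library totals, 6 with limma-voom and 6 with the strict filter; of the 31 bins, 26, 28 and 6 were, and 30 with DESeq2 and with halved counts. With a replicate block the calls were 90 higher and 12 lower regions and 274 higher and 89 lower bins. Whether equal numbers mark paired samples is not given in the labels. Same-numbered deviations correlated at -0.019, 0.0521 and 0.0212, and not every library correlated best with its own number. Values this close to 0 cannot decide whether the samples were paired.

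Medians by class moved to -0.061 for H3K4me1-marked regions with a top 10%, to -0.0463 (promoter-like), -0.138 (H3K4me1-marked), -0.169 (other) and -0.0945 (all) with library totals, and to -0.186 (other) and -0.0649 (all) without a filter. With single libraries left out they ran from -0.0112 to 0.0552 (promoter-like), -0.0967 to -0.02 (H3K4me1-marked), -0.12 to 0.292 (H3K9me3-marked), -0.175 to -0.0275 (other) and -0.0596 to -0.0104 (all). The difference in share ran from 0.118 to 3.11 points for promoter-like and from -2.29 to -0.465 for other regions. That of H3K4me1-marked regions, -0.323 points, ran from -0.526 to -0.0127 and became 0.212 with a top 10%, and that of H3K9me3-marked regions, 0.164 points, ran from -0.303, without control 1, to 0.435. The position of control 3 lay between 0.721 and 0.821 in its alternatives.

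The median SE of a log2 fold change was 0.61 for regions and 0.43 for bins. The parts of depth and of spread between libraries in it were not tested. No named region or bin changed direction under the alternatives run. Groups did not overlap at any of them in the main fit, so leaving out a library could hardly turn the sign.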
